A study of Mus musculus with 24 samples.

Results

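The messenger RNAs of 9 cytokines and chemokines that pancreatic tumor cells can release were followed in HY19636 cells, a mouse pancreatic ductal adenocarcinoma (PDAC) line. They were Cxcl1, Cxcl2, Cxcl5, Cxcl16, Ccl2, Ccl20, Il33, Lif and Csf1, matched by gene symbol, 9 of the 54532 genes in the deposited table. Wild-type (WT) cells were set against cells with a knockout (KO) of Phgdh, which encodes the enzyme that opens the serine synthesis pathway. Each genotype was grown alone (monoculture) or with hepatocytes (coculture), in medium that held serine and glycine or lacked both. This gave 8 groups of 3 libraries, 24 in all. The WT groups were the monoculture with both amino acids, the monoculture without them, the coculture with them and the coculture without them, and the KO groups were the same 4. The labels do not say that replicates were separate cultures, so each p-value reflects library-to-library spread, which can be technical. The sources used here do not state whether the KO line is 1 clone, which part of Phgdh was edited, or how the tumor cells were parted from the hepatocytes.

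Chemokines are small secreted proteins that draw leukocytes along a gradient by way of receptors on those cells. Cxcl1, Cxcl2 and Cxcl5 act through Cxcr2 on neutrophils, Ccl2 through Ccr2 on monocytes, Ccl20 through Ccr6 on lymphocytes and dendritic cells, and Cxcl16 through Cxcr6 on T cells. Il33 is a nuclear alarmin of the interleukin 1 family that signals through Il1rl1, Lif signals through Lifr and Il6st (gp130) to Stat3, and Csf1 is the growth factor of macrophages, which carry Csf1r. Pancreatic tumor cells are known sources of several of these factors, and many of the genes respond to NF-kB.

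On the mouse genome GRCm38, 3 of the CXC chemokine genes lie in 1 cluster on the forward strand of chromosome 5. Cxcl5 (ENSMUSG00000029371) is at chr5:90759360-90761624, Cxcl1 (ENSMUSG00000029380) at chr5:90891241-90893115 and Cxcl2 (ENSMUSG00000058427) at chr5:90903871-90905938. Cxcl16 (ENSMUSG00000018920) is at chr11:70453983-70459984 on the reverse strand. Ccl2 (ENSMUSG00000035385) is at chr11:82035571-82037453 and Ccl20 (ENSMUSG00000026166) at chr1:83116766-83119167. Il33 (ENSMUSG00000024810) is at chr19:29925114-29960718, Lif (ENSMUSG00000034394) at chr11:4257557-4272514 and Csf1 (ENSMUSG00000014599), on the reverse strand, at chr3:107741048-107760469. All 9 are annotated as protein coding. Cxcl16 shares 552 bases with Zmynd15 on the opposite strand. The sources used here do not state whether counting used strand, so reads from the shared bases cannot be assigned, but Zmynd15 stayed at or below 0.142 FPKM in all 24 libraries.

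The promoter table from RefSeq (GRCm38.p6) held 7 start sites of 6 of the 9 members. Windows of 160 bases are shown for 5 genes because each held a match to the kappa B consensus decamer, the element bound by NF-kB. Capitals mark the match, and in Lif also an AP-1 match, TGANTCA. Sequences run 5′ to 3′ along the strand of the gene, and the windows are chr5:90891045-90891204 for Cxcl1, chr5:90903699-90903858 for Cxcl2, chr1:83116566-83116725 for Ccl20, chr11:4257328-4257487 for Lif and, on the reverse strand, chr3:107760510-107760669 for Csf1.
Cxcl1: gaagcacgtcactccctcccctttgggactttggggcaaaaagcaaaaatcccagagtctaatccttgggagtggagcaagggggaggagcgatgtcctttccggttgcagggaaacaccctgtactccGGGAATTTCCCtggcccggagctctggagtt
Cxcl2: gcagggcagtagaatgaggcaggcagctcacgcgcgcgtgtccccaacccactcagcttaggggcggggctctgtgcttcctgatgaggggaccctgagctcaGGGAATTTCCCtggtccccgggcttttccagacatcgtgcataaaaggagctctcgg
Ccl20: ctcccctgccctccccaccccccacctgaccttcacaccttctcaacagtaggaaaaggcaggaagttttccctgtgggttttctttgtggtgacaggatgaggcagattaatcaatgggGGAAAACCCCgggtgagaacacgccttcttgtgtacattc
Lif: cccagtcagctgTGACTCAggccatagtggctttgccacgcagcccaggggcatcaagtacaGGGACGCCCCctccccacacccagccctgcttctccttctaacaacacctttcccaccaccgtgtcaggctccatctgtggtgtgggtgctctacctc
Csf1: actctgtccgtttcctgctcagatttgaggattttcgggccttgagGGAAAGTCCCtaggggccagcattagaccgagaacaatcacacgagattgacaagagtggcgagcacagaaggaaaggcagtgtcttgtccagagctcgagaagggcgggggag
Cxcl1 and Cxcl2 each held 2 overlapping decamers, in Cxcl1 from base −71 to −61 before the first transcribed base and in Cxcl2 from −97 to −87. The single matches lay at −80 to −71 in Ccl20, −154 to −145 in Csf1 and −178 to −169 in Lif. Both strands of the 250 bases before each start were searched, and 7.25% of 32851 RefSeq promoters held the decamer and 6.75% held TGANTCA. Neither motif was found at the 2 Il33 starts. These matches are descriptions of sequence and show no binding.

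Libraries held 15740081 to 23479425 reads, recovered from FPKM (fragments per kilobase, a level corrected for gene length and sequencing depth) and gene length. The deposited Phgdh level was 789 to 1405 FPKM in the WT libraries and 372 to 885 FPKM in the KO libraries, lower in KO than in WT within each of the 4 conditions with no overlap. Phgdh RNA was therefore present in the KO line, and the values check the labels only in direction. Duct markers (Krt19, Krt7, Sox9, Spp1 and others) summed to 595 to 2054 FPKM, higher in every coculture library than in every monoculture library. This sum does not describe each marker. Krt19 ranged from 63.95 to 1302 FPKM, while Epcam stayed at or below 1.298 FPKM and Cftr at or below 0.797 FPKM. In WT cells mean Spp1 was lower in coculture than in monoculture. It was 313 against 642 FPKM with serine and glycine and 376 against 690 FPKM without them. Hepatocyte markers summed to at most 1.12 FPKM over 20 genes, with Alb at or below 0.131 FPKM, in cocultures (0.179 to 1.08 FPKM) as in monocultures (0 to 1.12 FPKM). Macrophage markers summed to 3.28 to 8.70 FPKM in cocultures and 0.496 to 9.73 FPKM in monocultures, and 1 of the 12 genes, Cd68, reached 1 FPKM. Stellate cell and fibroblast markers summed to 1.697 to 2.58 FPKM in cocultures and 0.350 to 1.46 FPKM in monocultures. That sum was mostly Pdgfra, at 0.233 to 2.54 FPKM. Each other gene of that list stayed at or below 0.106 FPKM, and Col3a1 and Lrat were at 0 in all 24 libraries. Neutrophil markers summed to at most 1.71 FPKM. Endothelial markers summed to 1.63 to 3.59 FPKM in cocultures and 0.435 to 2.52 FPKM in monocultures. The part of these small signals in the coculture results was not tested. In bulk RNA, fewer cells of a type and less RNA per cell cannot be told apart. Replicate 1 of the KO monoculture with serine and glycine stood apart from its group, as did replicates 1 and 2 of the KO coculture without them, which lay at opposite ends of their group. Where leaving out one of these libraries ended or made a call of a member, the value without it is given beside the result. Single members did not all follow this order. In the KO coculture without serine and glycine, replicate 3 was the lowest library for Ccl20 (0.393 FPKM) and for Cxcl16 (0.573 FPKM). In the KO monoculture with them, replicate 3 stood apart for Lif (2.12 FPKM against 1.82 and 1.85 FPKM).

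Among the members, Cxcl5, Cxcl16, Ccl20, Il33, Lif and Csf1 (6 of 9) reached 1 FPKM in at least 3 libraries and were tested among 12061 genes with limma on log2(FPKM + 1). Changes below are on that scale, which understates the change of low genes, and a call is an adjusted p under 0.05. Because a gene that passed this filter through 1 high group had to differ, the counts are descriptions to be read against the share of all genes called. KO against WT in monoculture with serine and glycine, 6 of 6 were called, where 42.7% of all genes were, with 4 higher (against 21.5% of genes) and 2 lower (against 21.1%). In monoculture without them 5 of 6 were called, where 73.6% of all genes were, with 2 higher (against 37.4% of genes) and 3 lower (against 36.3%). Ccl20, Csf1, Il33 and Lif kept their direction between these media, and Cxcl5 did not. In coculture with the amino acids 5 of 6 were called, where 43.9% of all genes were, with 3 higher (against 21.8% of genes) and 2 lower (against 22%). In coculture without them 5 of 6 were called, where 53.6% of all genes were, with 2 higher (against 26.3% of genes) and 3 lower (against 27.4%). Lif was lower and Csf1 higher in KO cells in all 4 conditions.

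Coculture was set against monoculture in each genotype and medium. In WT cells with serine and glycine 5 of 6 were called, where 31.2% of all genes were, with 2 higher (against 16.3% of genes) and 3 lower (against 14.9%). In WT cells without them 5 of 6 were called, where 28.1% of all genes were, with 2 higher (against 14.9% of genes) and 3 lower (against 13.1%). Lif and Il33 were the higher genes and Cxcl5, Ccl20 and Csf1 the lower genes in both media. In KO cells with the amino acids 4 of 6 were called, where 40% of all genes were, with 1 higher (against 20.1% of genes) and 3 lower (against 19.9%). In KO cells without them 4 of 6 were called, where 71.3% of all genes were, with 2 higher (against 35% of genes) and 2 lower (against 36.3%). The coculture change differed between KO and WT for 2 of 6 members with serine and glycine (Il33 and Lif, against 10.4% of genes), 0 of them more positive in KO cells (against 4.98%) and 2 more negative (against 5.39%). Without them it differed for 5 of 6 (against 60.9%), with 2 more positive (against 29.7%) and 3 more negative (against 31.1%).

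Withdrawal of serine and glycine called 0 of 6 members in WT monoculture, where 1.63% of all genes were called (1.37% higher and 0.257% lower). In WT coculture it called 0 of 6, where 0.738% of genes were called (0.439% higher and 0.298% lower). At an unadjusted p under 0.05 limma gave 1 member in WT monoculture (Cxcl5) and 2 in WT coculture (Ccl20 and Csf1). The voom fit on recovered reads likewise gave 0 adjusted calls in each, and 1 and 2 members unadjusted. In KO monoculture 5 of 6 were called, where 70.8% of all genes were, with 1 higher (against 36.2% of genes) and 4 lower (against 34.5%). In KO coculture 1 of 6 was called, where 29.9% of all genes were, with 1 higher (against 15.5% of genes) and 0 lower (against 14.4%). Il33 was the higher gene in both. The withdrawal change differed between KO and WT in monoculture for 4 of 6 members (against 61.2% of genes), 1 more positive in KO cells (against 31.4%) and 3 more negative (against 29.8%). In coculture it differed for 1 of 6 (against 14.4%), more positive in KO cells (against 8.06%), and 0 were more negative (against 6.38%). Between coculture and monoculture of KO cells it differed for 4 of 6 (against 57.7%), 3 more positive in coculture (against 27.9%) and 1 more negative (against 29.8%). Comparisons that use the same groups share those libraries and are not independent.

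**Figure D1:**
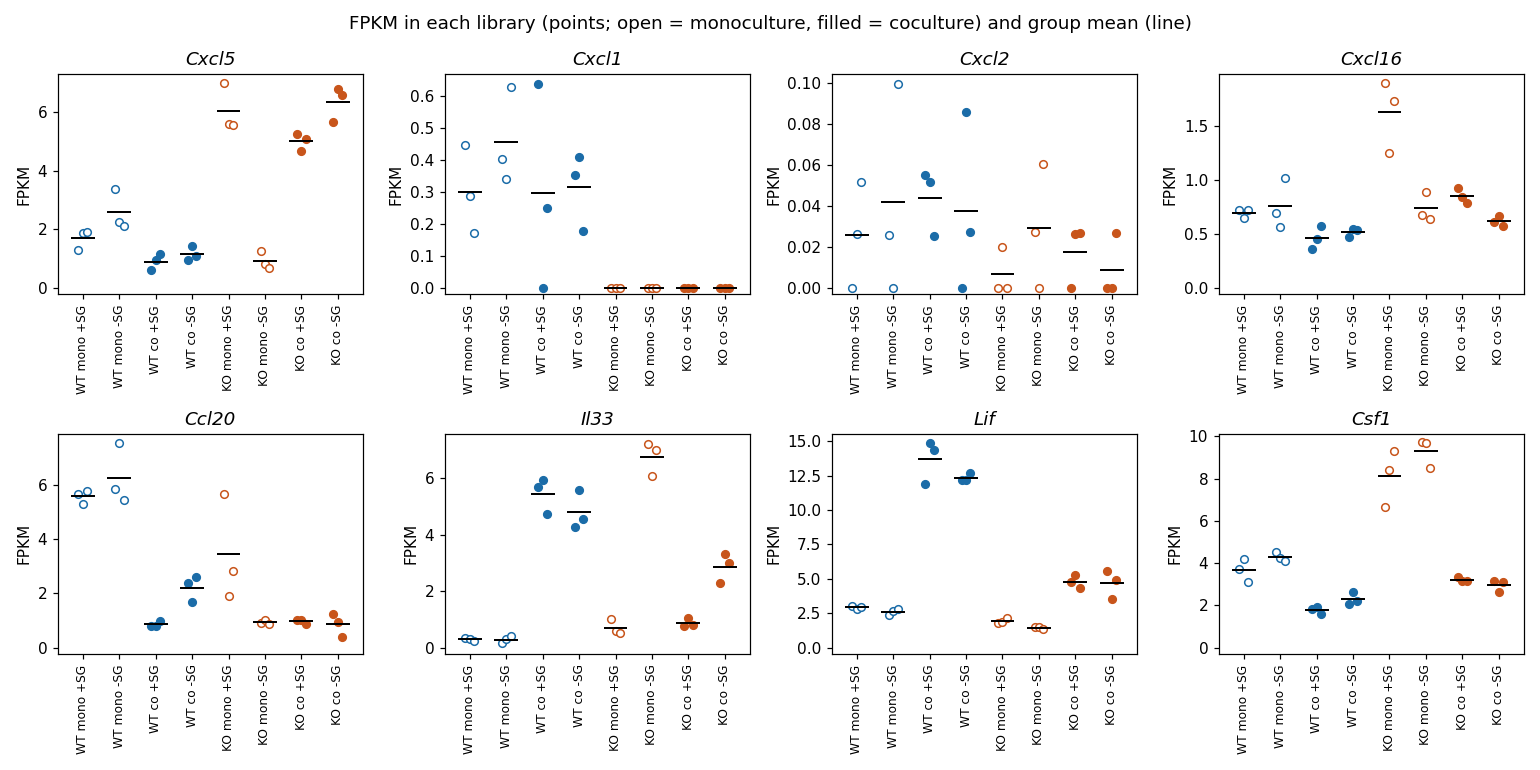
FPKM of 8 of the 9 members (vertical axes, each on its own linear scale) in the 24 libraries (points; open for monoculture, filled for coculture; blue WT, orange KO), with the mean of each group of 3 as a line; +SG and -SG mark medium with and without serine and glycine, and Ccl2, at 0 in all libraries, is not drawn. Cxcl1 is at 0 in all 12 KO libraries, Lif is highest in the WT cocultures and Csf1 in the KO monocultures.

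Cxcl5, a neutrophil chemokine, had the highest group means of the 3 members in the cluster and stood higher in KO than in WT cells in 3 of the 4 conditions. In WT monoculture it measured 1.29, 1.89 and 1.90 FPKM with serine and glycine and 3.39, 2.26 and 2.12 FPKM without them. In KO monoculture it measured 6.97, 5.59 and 5.54 FPKM with the amino acids and 1.25, 0.836 and 0.673 FPKM without them. The KO libraries thus lay above all WT libraries in one medium and below all of them in the other. The change from WT to KO was 1.39 (SE 0.14, limma adjusted p = 2.44e-07) with serine and glycine and −0.90 (adjusted p = 1.46e-05) without them. The withdrawal difference of Cxcl5 was −1.88 in KO monoculture (adjusted p = 6.68e-10) and 0.41 in WT monoculture (adjusted p = 0.208), and these values differed by −2.28 (SE 0.20, adjusted p = 1.23e-08).

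In coculture Cxcl5 measured 0.611, 0.944 and 1.15 FPKM in WT cells with serine and glycine and 0.961, 1.43 and 1.08 FPKM without them. KO cocultures measured 5.25, 4.67 and 5.08 FPKM with them and 5.65, 6.80 and 6.60 FPKM without them. All 6 KO cocultures lay above all 6 WT cocultures, in each medium by more than the spread between libraries. From WT to KO the change was 1.67 (adjusted p = 1.72e-08) with and 1.77 (adjusted p = 4.77e-09) without the amino acids. The fall on withdrawal seen in KO monoculture was not seen in KO coculture, where the change was 0.29 (adjusted p = 0.135), and the withdrawal changes of the 2 cultures differed by 2.17 (SE 0.20, adjusted p = 3.26e-08). Coculture lowered Cxcl5 in WT cells by 0.50 with serine and glycine (adjusted p = 0.0117; 0.0746 without WT coculture replicate 1, 0.0522 and 0.0534 without WT monoculture replicates 2 and 3) and by 0.72 without them (adjusted p = 0.000715). In KO cells without serine and glycine Cxcl5 was higher in coculture by 1.94 (adjusted p = 3.8e-10).

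Cxcl1, the main mouse neutrophil chemokine of this receptor, was low in WT cells and was listed at 0 in every KO library. WT monocultures measured 0.447, 0.289 and 0.171 FPKM with serine and glycine and 0.403, 0.342 and 0.629 FPKM without them. WT cocultures measured 0.638, 0 and 0.251 FPKM with them and 0.355, 0.410 and 0.180 FPKM without them. These values rest on 142 reads over the 12 WT libraries, 0 to 23 in each, against 0 reads over the 12 KO libraries. A floor of 3 reads over the 12 KO libraries corresponds to 0.00727 FPKM, so the pooled WT level of 0.342 FPKM was at least 47-fold higher, with counting error only considered. The gene did not pass the filter on low values. With the filter removed, limma gave an adjusted p of 0.0357 and 0.00123 in monoculture with and without serine and glycine, and of 0.0530 and 0.0220 in coculture with and without them. Replicate 2 of the WT coculture with serine and glycine was also at 0 reads, so that group overlapped the KO libraries and the other WT groups did not.

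Neighbours of Cxcl1 in the cluster were read in both genotypes. Cxcl3 was above 0 in 12 WT and 12 KO libraries, Ppbp in 12 and 11, and Cxcl2 in 9 and 6. Cxcl2, which shares the Cxcr2 receptor and a decamer pair like that of Cxcl1, had 17 reads over the WT libraries and 7 over the KO libraries. Its highest value was 0.0992 FPKM in WT and 0.0606 FPKM in KO cells, and no difference was detectable at this depth. Ccl2, the monocyte chemokine, had 0 reads in all 24 libraries, for which a floor of 3 reads over 12 libraries allows 0.0119 FPKM in WT and 0.0120 FPKM in KO cells.

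Ccl20, the ligand of Ccr6, was highest in WT monocultures and low in most other groups. It measured 5.66, 5.29 and 5.80 FPKM in WT monoculture with serine and glycine and 5.85, 7.55 and 5.45 FPKM without them. KO monoculture measured 5.69, 1.91 and 2.82 FPKM with them and 0.921, 1.02 and 0.882 FPKM without them. Replicate 1 of the KO monoculture with the amino acids lay among the WT values and the other two below them. The change from WT to KO with serine and glycine was −0.65 (adjusted p = 0.0198). It was −0.98 (adjusted p = 0.000117) without replicate 1 and −0.38 (adjusted p = 0.138) without replicate 2 of that KO group, and the adjusted p was 0.067 without its replicate 3 and 0.0548 without WT replicate 3. With only the compared groups in the limma fit, the adjusted p was 0.156, so the call relied on the spread shared with the other groups. Without the amino acids the change was −1.90 (adjusted p = 1.31e-07), with no overlap.

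In coculture Ccl20 measured 0.802, 0.788 and 0.993 FPKM in WT cells with serine and glycine and 2.38, 1.67 and 2.61 FPKM without them. KO cocultures measured 1.03, 1.03 and 0.862 FPKM with them and 1.26, 0.952 and 0.393 FPKM without them. The WT libraries without the amino acids lay above all other cocultures. Coculture lowered Ccl20 in WT cells by 1.82 (adjusted p = 1.54e-06) with the amino acids and by 1.18 without them (adjusted p = 0.000268). In KO cells it was lower by 1.09 with them (adjusted p = 0.000402), and the change without them was −0.08 (adjusted p = 0.736). Withdrawal in WT coculture gave 0.78 (adjusted p = 0.121), which became 0.0119 without replicate 1 of the KO monoculture with serine and glycine and 0.0497 without its replicate 2, libraries that enter this comparison only through the shared estimate of the spread. In KO monoculture withdrawal lowered Ccl20 by 1.12 (adjusted p = 0.000114).

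For Ccl20 the genotype difference of the coculture change with serine and glycine was 0.73 (adjusted p = 0.139), and 1.07 (adjusted p = 0.00497) without replicate 1 of the KO monoculture in that medium. The genotype difference of the withdrawal change in coculture was −0.89 (adjusted p = 0.0548). Its adjusted p was 0.00644 without the same library, which enters that difference only through the shared spread, and the value was −1.04 (adjusted p = 0.0233) without replicate 1 of the KO coculture lacking the amino acids. The first Ccl20 difference was thus called or not called according to a single KO library. The second was called in some alternatives and not in most. Its adjusted p was 0.0465 without replicate 2 of the WT coculture lacking the amino acids. With all libraries kept, it was 0.0339 with a pseudocount of 0.1 and 0.0297 with only the compared groups in the limma fit.

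Cxcl16, a membrane-bound chemokine that Adam10 can release, passed the filter through 1 group. KO monoculture with serine and glycine measured 1.91, 1.25 and 1.73 FPKM, above every other library of the study, and WT monoculture with them 0.721, 0.645 and 0.727 FPKM. The 2 monocultures without the amino acids measured 0.696, 0.565 and 1.02 FPKM in WT and 0.678, 0.894 and 0.643 FPKM in KO cells, and overlapped. Because that group admitted the gene to the test, its differences from other groups are given as descriptions, with no p. The KO minus WT difference was 0.62 with both amino acids, the withdrawal difference in KO monoculture was −0.59, and the latter minus that of WT monoculture was −0.64. Without the amino acids the KO minus WT difference in monoculture was −0.01 (adjusted p = 0.917). WT cocultures lay between 0.358 and 0.571 FPKM and KO cocultures between 0.573 and 0.931 FPKM, with a called difference in medium with serine and glycine (0.34, adjusted p = 0.00876). In KO cells the withdrawal difference of coculture minus that of monoculture was 0.40, and 0.32 without replicate 1 of the KO monoculture with the amino acids.

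Il33, the alarmin, had the widest range of the 6 tested genes, 23.8 times between its highest and lowest group mean. It measured 0.329, 0.319 and 0.223 FPKM in WT monoculture with serine and glycine and 0.150, 0.296 and 0.409 FPKM without them. KO monoculture measured 0.998, 0.584 and 0.4998 FPKM with them and 7.24, 6.08 and 7.02 FPKM without them. The KO monocultures without the amino acids stood above all other libraries of the study, and the 2 WT monocultures overlapped. Withdrawal raised Il33 by 2.21 in KO monoculture (SE 0.12, adjusted p = 5.9e-12), the change in WT monoculture was −0.01 (adjusted p = 0.994), and the difference between them was 2.22 (adjusted p = 2.2e-09). The change from WT to KO was 2.60 (adjusted p = 3.71e-13) without serine and glycine and 0.38 (adjusted p = 0.0178) with them. The latter was 0.26 (adjusted p = 0.107) without replicate 1 of the KO group. Its adjusted p was 0.0645 without WT replicate 3 and 0.0723 with only the compared groups in the limma fit.

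With hepatocytes the order of the genotypes was the other way round. WT cocultures measured 5.70, 5.95 and 4.75 FPKM with serine and glycine and 4.29, 5.60 and 4.55 FPKM without them. KO cocultures measured 0.762, 1.05 and 0.810 FPKM with them and 2.27, 3.32 and 2.9997 FPKM without them. Every WT coculture lay above every KO coculture. From WT to KO the value changed by −1.79 (adjusted p = 8.1e-10) with and −0.59 (adjusted p = 0.000504) without the amino acids. Coculture raised Il33 in WT cells by 2.32 and 2.18 with and without them (adjusted p = 1.45e-11 and 4.51e-11). In KO cells the coculture change was 0.15 with them (adjusted p = 0.349) and −1.02 without them (adjusted p = 4.73e-07), and these differed from WT by −2.17 and −3.19 (adjusted p = 2.06e-07 and 1.24e-11). Withdrawal raised Il33 in KO coculture by 1.04 (adjusted p = 5.49e-06), less than in KO monoculture by 1.17 (adjusted p = 1.26e-05).

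Lif, a gp130 cytokine, was higher in coculture than in monoculture in both genotypes and stood lower with the knockout in all 4 conditions. WT monoculture measured 3.01, 2.77 and 2.98 FPKM with serine and glycine and 2.33, 2.69 and 2.77 FPKM without them. WT coculture measured 11.9, 14.9 and 14.3 FPKM with them and 12.2, 12.2 and 12.7 FPKM without them. The cocultures lay above all monocultures, and withdrawal gave −0.13 in each WT culture (adjusted p = 0.706 and 0.77). KO monoculture measured 1.82, 1.85 and 2.12 FPKM with and 1.49, 1.47 and 1.34 FPKM without the amino acids, and KO coculture 4.79, 5.24 and 4.36 FPKM with and 5.57, 3.56 and 4.89 FPKM without them. Within each condition the KO libraries lay below the WT libraries with no overlap.

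Coculture raised Lif by 1.90 and 1.89 in WT cells with and without serine and glycine (adjusted p = 1.74e-11 and 2.11e-11) and by 0.98 and 1.21 in KO cells (adjusted p = 2.72e-07 and 2.85e-09). The coculture change was smaller in KO than in WT cells by 0.92 with the amino acids (adjusted p = 0.000401) and by 0.69 without them (adjusted p = 0.000428). The change from WT to KO was −0.42 and −0.56 in monoculture with and without them (adjusted p = 0.00257 and 6.26e-05) and −1.34 and −1.25 in coculture (adjusted p = 3.22e-09 and 5.26e-09). In KO cells the withdrawal change of coculture minus that of monoculture was 0.22 (adjusted p = 0.2), and 0.37 (adjusted p = 0.0113) without replicate 2 of the KO coculture lacking the amino acids. Withdrawal lowered Lif by 0.27 in KO monoculture (adjusted p = 0.0262). That call was lost under quantile normalization (−0.16, adjusted p = 0.155), without replicate 3 of the KO group in medium that held both amino acids (adjusted p = 0.0997) and without replicate 3 of its serine- and glycine-free counterpart (adjusted p = 0.0795).

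Csf1, the macrophage growth factor, moved the other way from Lif in both contrasts. WT monoculture measured 3.72, 4.18 and 3.12 FPKM with serine and glycine and 4.52, 4.24 and 4.11 FPKM without them. KO monoculture measured 6.66, 8.43 and 9.33 FPKM with them and 9.72, 9.67 and 8.49 FPKM without them. The 6 KO monocultures lay above the other 18 libraries. WT cocultures measured 1.84, 1.90 and 1.56 FPKM with them and 2.06, 2.63 and 2.21 FPKM without them, and KO cocultures 3.33, 3.15 and 3.17 FPKM with and 3.16, 2.61 and 3.10 FPKM without them. In coculture the genotypes did not overlap with the amino acids and overlapped without them.

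The change in Csf1 from WT to KO was 0.96 in monoculture with both amino acids (adjusted p = 2.93e-07) and 0.96 without them (adjusted p = 5.69e-08). In coculture it was 0.61 with them (adjusted p = 6.67e-05) and 0.26 without them (adjusted p = 0.0369), and the latter was lost in 8 alternatives, with an adjusted p of up to 0.141 without replicate 1 of that WT group and of 0.108 without replicate 1 of that KO group. Coculture lowered Csf1 by 0.75 and 0.68 in WT cells with and without the amino acids (adjusted p = 9.43e-06 and 3.23e-05) and by 1.10 and 1.38 in KO cells (adjusted p = 4.77e-08 and 3.31e-10). Without them the coculture change was more negative in KO than in WT cells by 0.70 (adjusted p = 0.00034). With them the difference was −0.35 (adjusted p = 0.135), and −0.47 (adjusted p = 0.0249) without replicate 1 of the KO monoculture with serine and glycine. The genotype difference of its withdrawal change in coculture was −0.35 (adjusted p = 0.106, and 0.0426 without the same library). Withdrawal called Csf1 in none of the 4 genotype and culture pairs, with changes from −0.10 to 0.25. In KO monoculture the change was 0.18 (adjusted p = 0.121), and 0.27 (adjusted p = 0.0289) without replicate 3 of the group with serine and glycine. In KO cells the withdrawal change of coculture minus that of monoculture was −0.28 (adjusted p = 0.109), and −0.37 (adjusted p = 0.0339) without that replicate 3.

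**Figure D2:**
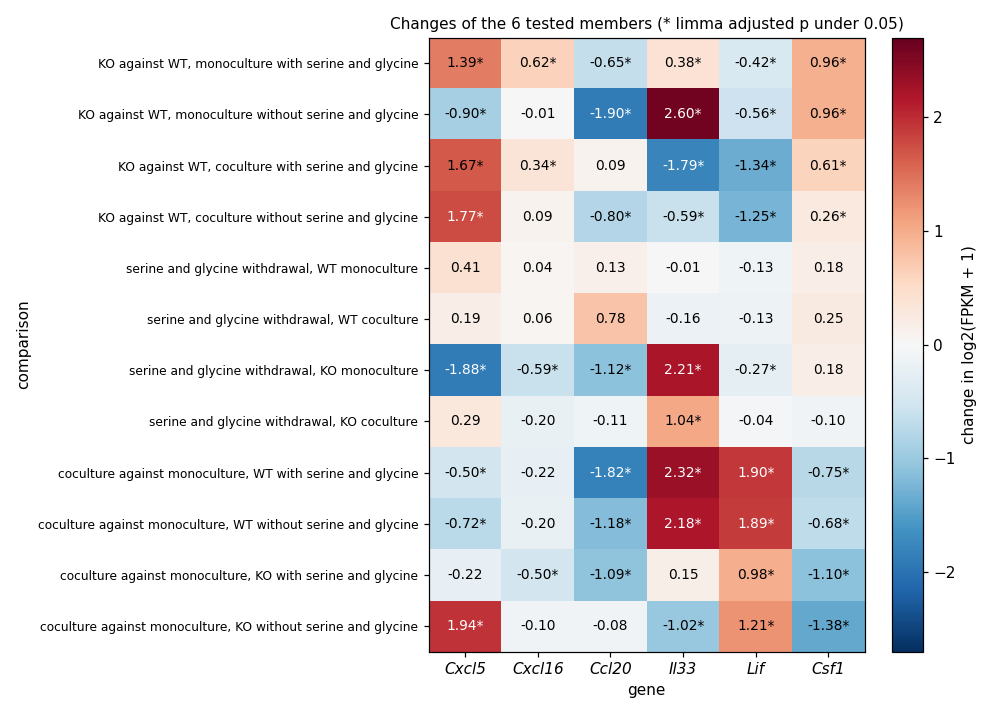
Change in log2(FPKM + 1) of the 6 tested members (columns) in the 12 comparisons of 2 groups (rows), red for higher and blue for lower in the group named first or after withdrawal, with an asterisk where the limma adjusted p was under 0.05. Lif is higher and Csf1 lower in all 4 coculture comparisons, and no member is called in the withdrawal comparisons of WT cells.

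**Figure D3:**
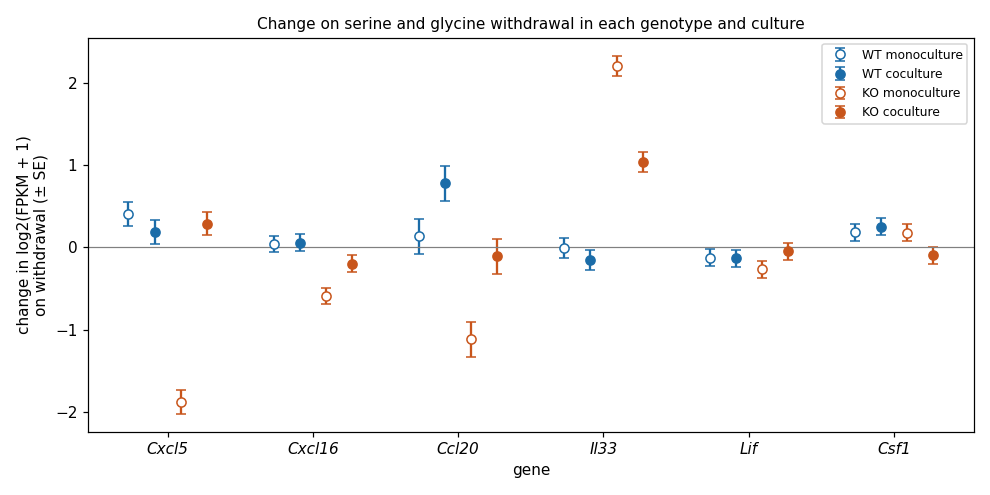
Change in log2(FPKM + 1) on serine and glycine withdrawal for the 6 tested members (horizontal axis) in each genotype and culture, with the standard error as bars; blue WT, orange KO, open monoculture, filled coculture. In KO monoculture Cxcl5 stands at −1.88 and Il33 at 2.21, away from the other 3 points of each gene.

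The receptors of these factors were mostly unread in the tumor cells. Of 12 receptors listed, 1 was tested, the shared gp130 subunit Il6st, at 4.99 to 10.04 FPKM. Il6st was lower in coculture in all 4 comparisons, by 0.28 to 0.47, and the Lif receptor subunit Lifr lay between 0.180 and 0.948 FPKM. Cxcr2, Ccr2, Ccr6, Cxcr6, Il1rl1 and Csf1r each stayed at or below 0.166 FPKM.

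Other ligands gave few measurable genes. Of 30 other chemokine ligands 3 were tested, and 13 were at 0 in all 24 libraries. Ppbp, a platelet and neutrophil chemokine of the Cxcl5 cluster, stood lower with the knockout in all 4 conditions, by 1.03 in coculture with serine and glycine (adjusted p = 8.49e-06) and by 0.74 in the matching monoculture (adjusted p = 0.000369). Ccl25 passed the filter only through KO monoculture without serine and glycine, at a mean of 2.36 FPKM against 0.380 FPKM with them. Of 42 other cytokines and growth factors listed, 40 were in the table and 8 were tested. Withdrawal in KO monoculture called 4 of the 8 higher and 2 lower, where 70.8% of all genes were called, with a median change of 0.34 against 0.00424 over all genes. Csf2, which encodes the granulocyte and macrophage growth factor, rose from a mean of 0.396 to 3.52 FPKM (1.67, adjusted p = 1.6e-07), and Tnfsf9 fell by 1.66 (adjusted p = 2.35e-09). In KO coculture withdrawal called 3 higher and 2 lower, where 29.9% of all genes were called, led by Il1rn, the interleukin 1 receptor antagonist, which went from 5.74 to 27.2 FPKM (2.06, adjusted p = 1.19e-12). Kitl, the ligand of Kit, was higher in KO cells in all 4 conditions, at 29.3 against 10.3 FPKM in monoculture with the amino acids (1.40, adjusted p = 4.72e-08).

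NF-kB genes were described from a list of 30, of which 26 were tested. Withdrawal in KO monoculture called 11 higher and 7 lower, a share of the list near the 70.8% of all genes called there, with a median change of 0.13. Tnfaip3, a feedback inhibitor of NF-kB, rose by 1.74 (adjusted p = 1.48e-13), while Ikbkg, the regulatory subunit of the kinase, fell by 1.84 (adjusted p = 3.95e-16) and Birc3 fell by 1.41 (adjusted p = 1.28e-09). In WT coculture with serine and glycine 5 were higher and 5 lower than in monoculture, where 31.2% of all genes were called, led by Tnfaip3 (1.36, adjusted p = 3.21e-11). In coculture with them, KO against WT, 9 were higher and 4 lower, where 43.9% of all genes were called. Of all genes, 21.8% were called higher and 22% lower. The median change of the list was −0.0058, against 0.00014 over all genes, so the list as a whole did not shift. Among the 4 lower genes, Tnfaip3 was lower by 1.05 (adjusted p = 1.57e-09) and Ptgs2 by 1.18 (adjusted p = 6.33e-09). In WT monoculture withdrawal called 1 higher (Nfkbiz, 0.44, adjusted p = 0.00639) and 0 lower, where 1.63% of all genes were called.

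Of 15 genes of the gp130, JAK and STAT3 pathway, 13 were tested. In WT coculture with serine and glycine 3 were higher and 2 lower than in monoculture, where 31.2% of all genes were called, among them Jak1 (0.54, adjusted p = 6.05e-07). Cish, a feedback inhibitor, passed the filter only through that coculture group, at a mean of 1.19 FPKM against 0.588 FPKM in the monoculture and 0.133 FPKM in the matching KO coculture. In coculture with them, KO against WT, 6 were higher and 2 lower, where 43.9% of all genes were called. Of all genes, 21.8% were called higher and 22% lower. The median change of the list was 0.10, against 0.00014 over all genes, so the 2 lower genes do not stand for the list. The lower 2 were Cish and the kinase gene Pim1 (−0.73, adjusted p = 0.0082). Of 10 regulators of cytokine mRNA decay, withdrawal in KO monoculture called 5 higher and 1 lower, where 70.8% of all genes were called, led by the RNase gene Zc3h12c (1.39, adjusted p = 3.57e-10). Of 10 proteases that release or cleave the members, 5 were tested, and withdrawal there called 3 higher and 2 lower, against the same share of all genes, led by the calpain gene Capn2 (1.31, adjusted p = 2.09e-12).

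Genes whose 8 group means ran most like those of a member were sought among 4373 genes. As Pearson correlations over 8 group means that share their libraries, given as descriptions, the highest were Tpcn1 (0.98) and Disp1 (0.98) for Cxcl5, Neurl1b (0.97) and Elovl6 (0.96) for Ccl20, and Tnfaip3 (0.95) and Fhl2 (0.92) for Il33. For Lif they were Loxl2 (0.99) and Gls2 (0.99), and for Csf1 Tmem129 (0.97) and Klrg2 (0.96). Loxl2 ranged from a mean of 0.00707 FPKM in KO monoculture without serine and glycine to 13.9 FPKM in WT coculture with them, and Lif from 1.43 to 13.7 FPKM between the same groups.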

How the data were processed

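RNA was sequenced from 24 libraries and, per the submitters' processing notes, aligned with HISAT2 to GRCm38 (mm10). The authors deposited 1 table of FPKM, with 0 columns of other samples; the sources used here do not give its counter, annotation release or scaling total. FPKM times gene length gave whole reads (100% within 0.01 read), and each library had been scaled by 0.969 to 1.07 times its own total. The main test was limma 3.58.1 in R 4.3.3 on log2(FPKM + 1), with genes that reached an FPKM of 1 in 3 or more libraries, 8 group means, a mean-variance trend and 16 residual degrees of freedom. P-values were two-sided and adjusted by Benjamini-Hochberg over 12061 genes in each of 17 comparisons (12 of 2 groups, 5 of differences). The fit was tested on simulated data for KO against WT in monoculture with serine and glycine only. The simulation gave every gene the same spread and changed few genes, unlike these data, so no support is drawn from it. Members and lists were chosen with earlier results of these data known. Named genes were the 9 members, up to 3 called genes of each list with the largest change, and 2 genes of like pattern for each member whose group means spanned at least 1. Same-numbered libraries deviated together only in the withdrawal comparison of KO monocultures (correlations 0.114 to 0.401); the labels do not say what a number marks. Alternatives changed the pseudocount, filter, groups in the fit, scaling, block and libraries, and voom was run on the recovered reads. Intervals and floors cover counting error only. Python 3.11.15 and pandas 2.3.3 were used.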

Additional observations from a re-analysis of the deposited data

Results flagged for a closer look

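In 16 instances the change of a member differed between groups by a limma test of the difference itself, on the log2(FPKM + 1) scale, with an adjusted p under 0.05. Those of Cxcl16 contain the group that admitted the gene to the test, so they are counted as descriptions. No cause was tested for any of the 16.

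For Cxcl5 the withdrawal change in monoculture differed between KO and WT cells by −2.28, the withdrawal change of KO cells was higher in coculture than in monoculture by 2.17, and the coculture change without serine and glycine was higher in KO than in WT cells by 2.67. For Ccl20 the same differences were −1.25, 1.01 and 1.10. The last pair was lost for Ccl20 in the voom fit (adjusted p = 0.0774 and 0.065) and when libraries 1 and 2 of the serine- and glycine-free KO coculture were left out (0.61 with adjusted p = 0.152, and 0.70 with adjusted p = 0.0988). Without the first library of both KO monocultures the second Ccl20 difference was 0.67 (adjusted p = 0.0266). For Cxcl16 the withdrawal change differed by −0.64 between KO and WT in monoculture and by 0.40 between coculture and monoculture in KO cells, and the latter was lost in 8 alternatives (adjusted p of up to 0.237). Both Cxcl16 differences contain the KO monoculture with serine and glycine, the group through which the gene passed the filter on low values, so they are descriptions.

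For Il33 the withdrawal change was higher in KO than in WT cells by 2.22 in monoculture and by 1.19 in coculture, and in KO cells it was lower in coculture than in monoculture (−1.17). Its coculture change differed between KO and WT by −2.17 with serine and glycine and by −3.19 without them. For Lif the coculture change differed between KO and WT by −0.92 with and −0.69 without the amino acids, and for Csf1 by −0.70 without them.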

How the results depend on the processing

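Of 102 results of a member in a comparison, 61 were called, and 53 of these were called in every alternative that tested the gene. The alternatives numbered 33, or 32 for Cxcl16, which the filter of FPKM 5 left out. Cxcl16 calls that use the KO monoculture with serine and glycine are descriptions, since that group admitted the gene to the test. Of the 61 calls, 8 were lost in at least 1 alternative. Of the 41 other results, 10 were called in at least 1, and 0 results reversed. The count-model fits planned with edgeR and DESeq2 were not run, since the deposited unit is FPKM. Voom and the fit without libraries 1 and 2 of the serine- and glycine-free KO coculture were chosen after seeing the data, and in the latter the lone remaining library is assumed to vary like the other groups. With the replicate block the members called stayed at 5 in the withdrawal comparison of KO monocultures and no member call changed.

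Members called on withdrawal in WT coculture went from 0 to 1 without both first KO monoculture libraries, and from 0 to 1 over the fits that left out 1 library. The difference of the withdrawal change between genotypes in coculture (1 member) gave 2 with a pseudocount of 0.1, a filter of FPKM 5, the groups compared alone, quantile normalization, or without libraries 1 and 2 of the serine- and glycine-free KO coculture, 3 without both first KO monoculture libraries, and 1 to 3 with 1 library left out. The difference of the coculture change with serine and glycine (2 members) gave 4 without both first KO monoculture libraries and 2 to 4 with 1 library left out. The difference of the withdrawal change between cultures in KO cells (4 members) gave 2 in voom and 2 without libraries 1 and 2 of the KO coculture. The cause was not tested.

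Over all genes, fits of the compared groups alone called 3165 in place of 5145 genes for KO against WT in monoculture with serine and glycine, 2840 in place of 4824 for coculture of KO cells with them, 769 in place of 1251 for the genotype difference of that change, and 1820 in place of 3607 for withdrawal in KO coculture (1842 without its serine- and glycine-free libraries 1 and 2, 2130 without replicate 2 alone). Counts ran from 62 to 433 (main 196) for withdrawal in WT monoculture (302 with its groups alone), 4 to 204 (main 89) in WT coculture (59 with a pseudocount of 0.1), and 1053 to 3484 (main 1742) for the genotype difference of withdrawal in coculture. Depth limits Cxcl1, Cxcl2 and Ccl2, which had at most 23 reads in a library.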
